A study of Mus musculus with 7 samples.

Results

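The enzymes that write, copy, oxidise and excise methylated cytosine are themselves encoded by genes whose DNA can carry these marks. Peaks of 5-methylcytosine (5mC) and 5-hydroxymethylcytosine (5hmC) were examined at 10 such mouse genes, Tet1, Tet2, Tet3, Dnmt1, Dnmt3a, Dnmt3b, Dnmt3l, Uhrf1, Tdg and Mbd4. A peak was counted at a gene when it carried the gene's symbol in the deposited annotation, or lay in the gene or within 50 kb of it on GRCm38. By this rule 8 of the 8949 peaks in the 4 deposited lists lay at these genes. They fell at 4 genes, Tet1, Tet3, Dnmt1 and Dnmt3l, and the other 6 genes had no peak in any list. Of all 21951 protein-coding genes, 37.1% had a peak by the same window in at least 1 list.

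The DNA came from ATDC5, a chondroprogenitor line derived from a mouse teratocarcinoma that makes cartilage-like matrix when its medium holds insulin, transferrin and selenite. Of 7 samples, 1 was day 0 input DNA, 1 was day 0 and 1 was day 10 DNA captured for 5mC with a methyl-CpG binding complex, and 2 each were day 5 and day 10 DNA captured for 5hmC after enzymatic tagging with a modified glucose. Each mark and day had 1 peak list, for which the authors merged both 5hmC samples of a day, so there was no replicate spread and no test between days. The lists held 326 (5mC, day 0), 2058 (5hmC, day 5), 4164 (5hmC, day 10) and 2401 peaks (5mC, day 10), and gave positions with no height, fold or read count, so the depth is unknown and the cell type could not be checked against its markers. Per the file headers the limit was 3-fold enrichment for 5mC and 10-fold for 5hmC, and the sample against which each list was called is not given in the sources used here. The study's methods describe the calling as a search for gain or loss between progenitors and chondrocytes, so a gene with no peak is one with no listed region, which is not a measurement that the mark was missing. The days are those of the labels. The study's text gives other days, and by its stage names the 5hmC list of day 10 is of intermediate cells and the 5mC list of day 10 is of chondrocytes, so the cells of these lists may be of different stages.

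TET1, TET2 and TET3 are dioxygenases that oxidise 5mC to 5hmC and then to further products. TDG, a DNA glycosylase, removes the further products, and MBD4 removes thymine left by deamination of 5mC, after which base excision repair restores cytosine. DNMT1 copies methylation to the new strand after replication and is brought there by UHRF1, which binds hemimethylated DNA. DNMT3A and DNMT3B set new methylation, and DNMT3L, which has no catalytic activity of its own, helps them do so.

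The peaks inside Tet1 carry the main observation. Tet1 alone of the 10 genes had peaks of both day 10 lists in the body or up to 5 kb upstream. Of all protein-coding genes, 1.78% had peaks of both day 10 lists in the body or up to 5 kb upstream. Tet1 is 104 kb long, where the median of protein-coding genes was 17.4 kb. Both ends of its first 5hmC peak lie in genotyping primer sites, as described below. The reference sequence of both day 10 5hmC peaks of Tet1 is shown whole, on the strand of the gene (minus), followed by the 200 bases with the most CpG of the intronic day 10 5mC peak. The matching stretch of the day 10 5mC peak near Dnmt3l is shown on the plus strand, because almost all of that peak is annotated as repeat. Capitals mark CpG dinucleotides, the usual target of both marks. No stretch of the Tet3 peak is shown, because most of it is noncoding exon in a predicted transcript.
Tet1 5hmC day 10, chr10:62833266-62833552: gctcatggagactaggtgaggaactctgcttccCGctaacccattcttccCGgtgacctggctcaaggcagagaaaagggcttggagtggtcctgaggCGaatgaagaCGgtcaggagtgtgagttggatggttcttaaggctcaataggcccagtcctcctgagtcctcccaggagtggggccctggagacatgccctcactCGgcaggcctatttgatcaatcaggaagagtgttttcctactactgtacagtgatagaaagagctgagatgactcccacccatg
Tet1 5hmC day 10, chr10:62851523-62851695: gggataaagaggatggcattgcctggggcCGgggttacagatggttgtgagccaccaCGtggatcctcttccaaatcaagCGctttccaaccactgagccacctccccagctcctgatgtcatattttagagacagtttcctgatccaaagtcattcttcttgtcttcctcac
Tet1 5mC day 10, chr10:62833957-62834156: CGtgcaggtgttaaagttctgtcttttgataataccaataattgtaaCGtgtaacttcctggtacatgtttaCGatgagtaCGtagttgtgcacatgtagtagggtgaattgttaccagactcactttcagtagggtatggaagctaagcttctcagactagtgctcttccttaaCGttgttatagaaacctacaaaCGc
Dnmt3l 5mC day 10, chr10:78020233-78020432: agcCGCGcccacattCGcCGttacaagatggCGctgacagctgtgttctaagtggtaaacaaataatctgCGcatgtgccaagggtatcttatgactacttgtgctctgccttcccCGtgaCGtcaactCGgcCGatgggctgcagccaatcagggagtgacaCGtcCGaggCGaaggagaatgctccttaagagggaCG

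Over all lists 4 of the 10 genes had a peak in the gene or within 50 kb, where 37.1% of protein-coding genes did, so the count was close to that share. In the day 0 5mC list 1 gene had a peak in the gene or within 50 kb, and 1.84% of protein-coding genes did. In the day 5 5hmC list it was 1 gene against 14.0%, and in the day 10 5hmC list 1 gene against 20.6%. In the day 10 5mC list it was 3 genes against 15.9%. By this window the share of all genes was thus above that of the 10 genes in both 5hmC lists and below it in both 5mC lists. Each count rests on 1 to 3 genes.

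With only the gene body and 5 kb upstream of it, the 5mC counts were lower and the 5hmC counts the same. No gene had a day 0 5mC peak there, where 0.542% of protein-coding genes had one. The day 5 5hmC list had 1 gene, Tet3, against 5.09%. The day 10 5hmC list had 1 gene, Tet1, against 7.87%, and the day 10 5mC list also had only Tet1, against 6.55%. In any list 2 of the 10 genes had such a peak, and 15.3% of protein-coding genes did. A longer gene can hold more peaks, and the median length was 45.5 kb for the 10 genes and 17.4 kb for protein-coding genes.

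**Figure D1:**
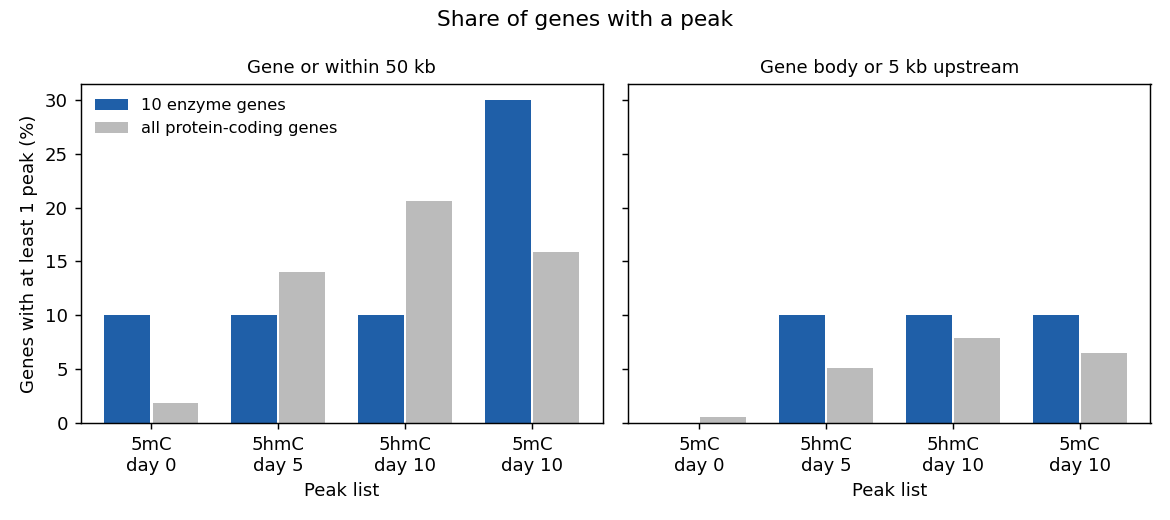
Share of genes (%, vertical axis) with at least 1 peak in each of the 4 lists (horizontal axis), for the 10 enzyme genes (blue, 1 gene is 10%) and for 21951 protein-coding genes (grey), in the gene or within 50 kb (left) and in the gene body or 5 kb upstream (right). The blue bars stand for 0 to 3 genes, and the highest is day 10 5mC with 3 genes within 50 kb.

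Scaled to length, the 1.56 Mb of the 10 windows held 0.642 day 0 5mC peaks per Mb and the chromosomes 0.120. For day 5 5hmC the values were 0.642 and 0.755, and for day 10 5hmC 1.28 and 1.53. Without the first Tet1 5hmC peak shown, both ends of which lie in genotyping primer sites, the day 10 5hmC value of the windows was 0.642. For day 10 5mC the values of the 50 kb windows and the chromosomes were 2.57 and 0.881. The windows had a 95% exact Poisson interval of 0.70 to 6.58, which covers counting error only. With windows of 50 kb, the density of the chromosomes lay inside the interval of the windows in all 4 lists. With windows of 10 kb the 5hmC values were 1.32 (day 5) and 2.64 (day 10), above those of the chromosomes. The day 10 5mC value was then 1.32, also above, and the day 0 5mC value 0. The 2.64 rests on both Tet1 5hmC peaks, 1 of which ends in the primer sites. A single peak in these windows is 1.32 per Mb, below the 1.53 of the chromosomes for day 10 5hmC.

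Tet1 (ENSMUSG00000047146.17, chromosome 10, 62804570 to 62908996, minus strand) had no 5mC peak at day 0, no 5hmC peak at day 5, and 2 peaks of each mark at day 10. Of these 4 peaks, 3 lay in the gene body and all 3 carried its symbol in the authors' annotation. The nearest day 0 5mC peak was 5503 kb from the gene and the nearest day 5 5hmC peak 215 kb. Both 5hmC peaks thus lay in a gene with no listed 5hmC region inside or near it at day 5.

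The first day 10 5hmC peak of Tet1, at 62833266 to 62833552, was 287 bp wide and wider than 93.9% of its list, whose median width was 147 bp. It covered 15 bp of a coding exon, which is exon 4 of 11 in 1 annotated transcript and exon 5 of 13 in another, and 272 bp of the intron after it. It held 5 CpG, or 1.74 per 100 bp, against 0.523 in flanks of equal width that began 2000 bp away, and none of it was repeat. Both ends of this peak fell inside the annealing sites of the wild-type primer pair that the study's methods give for genotyping Tet1 mutant mice, so it covered the product of that PCR but for a few bases at each end. Whether such product contributed to the peak was not tested, and the counts that rest on it are given with and without it.

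The second day 10 5hmC peak, at 62851523 to 62851695, was intronic and 173 bp wide, with its midpoint 57.4 kb after the gene start. It held 3 CpG, or 1.73 per 100 bp against 0.578 in its flanks, and 40.5% of it was repeat. Its width was above 68.0% of its list and its CpG content near the list's median of 1.80. Without the first peak Tet1 thus had 1 day 10 5hmC peak, and the count of the 10 genes with such a peak stayed at 1.

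The day 10 5mC peak in the body of Tet1, at 62833880 to 62834907, was 1028 bp wide and lay in the intron before the same exon, 252 bp from it. It held 12 CpG, or 1.17 per 100 bp, which was above only 8.33% of the peaks of its list. Its flanks held 0.924 CpG per 100 bp. The other day 10 5mC peak, at 62952671 to 62953764, lay 43.7 kb upstream of Tet1 in Dna2, a helicase and nuclease gene, and carried that symbol. It held 23 CpG, or 2.10 per 100 bp.

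The body peaks of the marks did not overlap. The gap between the 5mC peak and the first 5hmC peak was 327 bp and held 2 CpG. Of all 4164 day 10 5hmC peaks, 1.08% lay within 1 kb of a day 10 5mC peak. Without the peak that ends in the primer sites, the smallest gap between the marks in Tet1 was 16.6 kb. Of 21951 protein-coding genes, 391 (1.78%) had peaks of both day 10 lists in the body or up to 5 kb upstream. Leaving out mitochondrial genes, 381 did, with a median smallest gap of 20.6 kb, and 22 of them (5.77%) had a gap of at most 1000 bp. Tet1 was among these 22 with the first peak and not without it.

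Tet2 (ENSMUSG00000040943.12, chromosome 3, 133463679 to 133545139, minus strand) had no peak of either mark on any day. Its nearest 5hmC peaks were 604 kb away at both day 5 and day 10, and its nearest 5mC peaks 3397 kb away at day 0 and 1737 kb away at day 10. Of the 10 genes it was the farthest from a day 10 5mC peak. Its promoter in the RefSeq table held 19.0 CpG per 100 bp, more than 99.9% of the promoters there.

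Tet3 (ENSMUSG00000034832.15, chromosome 6, 83362373 to 83459084, minus strand) had the only day 5 5hmC peak found at the 10 genes. The peak, at 83455004 to 83456025, was 1022 bp wide and carried no symbol in the authors' annotation. It began 367 bp after the start of an annotated Tet3 transcript and covered 477 bp of that transcript's exon 2, of which 49 bp were coding, and 545 bp of the intron before it. In a predicted RefSeq transcript all 1022 bp lay in exon 1, which starts 189 bp before the peak. The peak held 35 CpG, or 3.42 per 100 bp, more than 96.5% of its list, and was 60.0% G or C. It was thus a CpG-rich region near a transcript start. The midpoints of the peaks in the body of Tet1, in contrast, lay 13.7 to 19.9 kb from the nearest annotated start of a Tet1 transcript.

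The other peak near Tet3 was of 5mC at day 10, at 83497275 to 83498281. It lay 38.2 kb upstream of the gene in Dguok, the gene of a mitochondrial nucleoside kinase, and carried that symbol. It held 30 CpG, or 2.98 per 100 bp, against 0.745 in its flanks. Tet3 had no 5mC peak at day 0, where the nearest was 2040 kb away, and no 5hmC peak at day 10, where the nearest was 280 kb away. The day 5 peak of Tet3 and the day 10 peaks of Tet1 were thus each in 1 of the 5hmC lists, and of all day 5 5hmC peaks 29.6% overlapped a day 10 5hmC peak. Of the day 10 5hmC peaks 17.1% overlapped a day 5 5hmC peak, so a peak in 1 of these lists alone was the usual case.

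**Figure D2:**
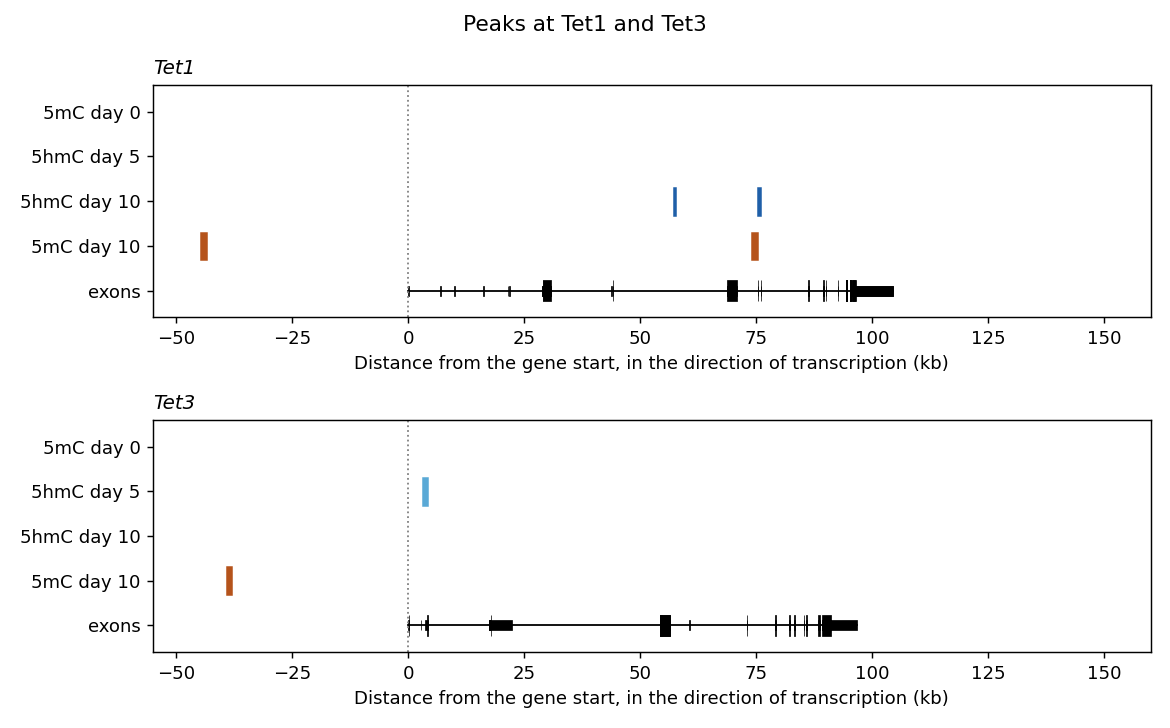
Peaks at Tet1 (top) and Tet3 (bottom) by distance from the gene start in the direction of transcription (kb), 1 row for each list. Black boxes are exons, taller where coding, and coloured boxes are peaks, drawn with an outline that widens the narrowest. In Tet1 the day 10 marks sit side by side, with midpoints at 74.6 kb (5mC) and 75.6 kb (5hmC, the peak that ends in the primer sites, without which the smallest gap is 16.6 kb), and in Tet3 the midpoint of the day 5 5hmC peak is 3.57 kb from the start.

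Dnmt1 (ENSMUSG00000004099.16, chromosome 9, 20907209 to 20959888, minus strand) had the only day 0 5mC peak found at the 10 genes, and no peak in its own body. The peak, at 20973212 to 20974057, lay 13.3 kb upstream in S1pr2, a sphingosine 1-phosphate receptor gene, and carried that symbol. It held 10 CpG, or 1.18 per 100 bp, more than 92.0% of its list, and 53.4% of it was repeat. Its flanks were richer in CpG, at 3.90 per 100 bp. Dnmt1 had no day 5 5hmC peak within 50 kb, with the nearest 71.0 kb away, and at day 10 its nearest peaks were 229 kb (5hmC) and 263 kb (5mC) away.

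Dnmt3a (ENSMUSG00000020661.15, chromosome 12, 3806007 to 3914443, plus strand) had no peak in any list although it was the longest of the 10 genes at 108 kb. Its nearest peaks were 632 kb (5hmC, day 5), 604 kb (5hmC, day 10) and 485 kb (5mC, day 10) away. The day 0 5mC list had no peak on its chromosome. Dnmt3b (ENSMUSG00000027478.15, chromosome 2, 153649450 to 153687730, plus strand) also had none. Its nearest peaks were 4449 kb (5mC, day 0), 741 kb (5hmC, day 5), 438 kb (5hmC, day 10) and 546 kb (5mC, day 10) away. Over all protein-coding genes the median distances were 2863, 367, 230 and 391 kb in the same order.

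Dnmt3l (ENSMUSG00000000730.13, chromosome 10, 78041947 to 78063622, plus strand) had 1 peak, of 5mC at day 10, at 78020024 to 78020560. It was intergenic, 21.4 kb upstream of the gene, and carried no symbol. At 537 bp it was among the narrowest of its list, wider than only 1.50% of it, and 95% of it was repeat, where the median of the list was 14.0%. It held 18 CpG, or 3.35 per 100 bp, against 0.466 in its flanks. Reads from repeats can be hard to place, and the part of this in the peak was not tested. The nearest peaks in the other lists were 825 kb (5mC, day 0), 478 kb (5hmC, day 5) and 73.6 kb (5hmC, day 10) away.

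Uhrf1 (ENSMUSG00000001228.14, chromosome 17, 56303321 to 56323486, plus strand) had no peak, and was the farthest from a listed region in 3 of the lists, among 10 genes for 5hmC and among the 9 with a distance for day 0 5mC. Its nearest peaks were 9492 kb (5mC, day 0), 5791 kb (5hmC, day 5) and 2814 kb (5hmC, day 10) away. The nearest day 10 5mC peak was closer, at 99.8 kb. Dnmt1 and Uhrf1, whose products act together at the replication fork, thus had no peak of either mark in the body or 5 kb upstream. The same was true of 84.7% of protein-coding genes.

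Tdg (ENSMUSG00000034674.18, chromosome 10, 82629828 to 82650799, plus strand) had no peak. The nearest lay 1619 kb (5mC, day 0), 325 kb (5hmC, day 5), 372 kb (5hmC, day 10) and 177 kb (5mC, day 10) away. Mbd4 (ENSMUSG00000030322.12, chromosome 6, 115840697 to 115853371, minus strand) had none either. Its nearest 5hmC peaks were 120 kb away on both days, and the nearest 5mC peaks 4200 kb (day 0) and 210 kb (day 10) away. Neither glycosylase gene thus had a listed region of either mark within 50 kb, where 37.1% of protein-coding genes had one.

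**Figure D3:**
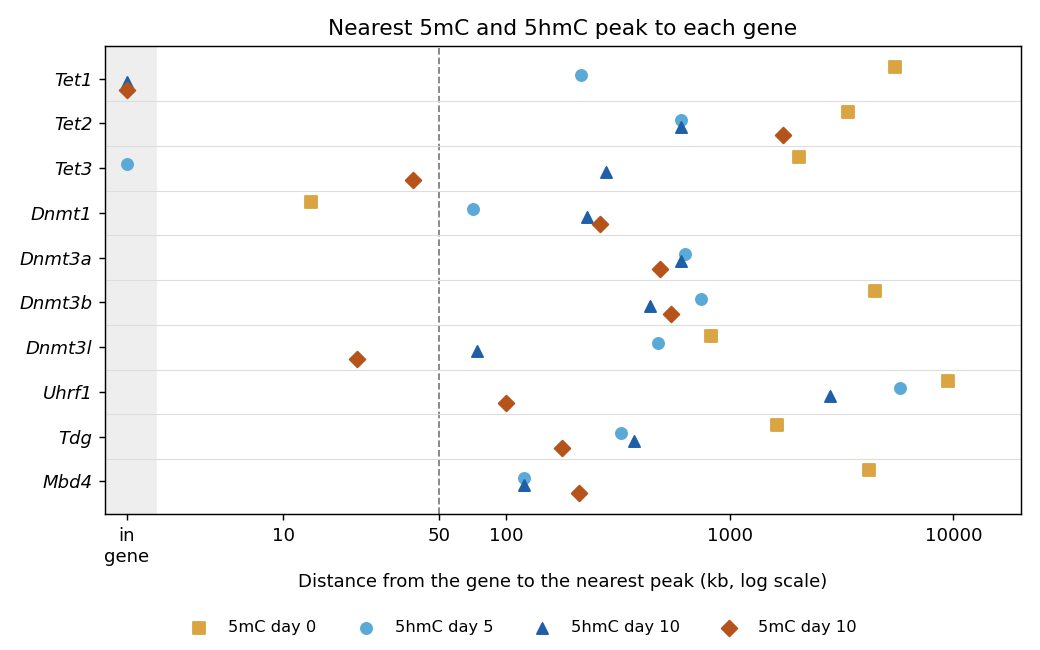
Distance from each of the 10 genes to the nearest peak of each list (kb, log scale), with peaks inside the gene drawn in the shaded strip and a dashed line at 50 kb. Dnmt3a has no day 0 point because that list had no peak on its chromosome. Only Tet1 and Tet3 have points in the strip, and Tet3, Dnmt1 and Dnmt3l have 1 each between the strip and the line.

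The median distance of the genes to the nearest peak lay on either side of that of all protein-coding genes. It was 3397 kb for 9 genes against 2863 kb for 5mC at day 0, 401 against 367 kb for 5hmC at day 5, 326 against 230 kb for 5hmC at day 10, and 193 against 391 kb for 5mC at day 10. Of the 10 genes, 8 had no peak in the body or 5 kb upstream in any list, as did 84.7% of protein-coding genes. The combination seen at Tet1, with both day 10 lists and no other, was found at 222 genes (1.01%), and that at Tet3, with the day 5 5hmC list alone, at 494 (2.25%).

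The promoters of these genes in the RefSeq table held no peak. This table, which spans 250 bases before to 50 after each start on GRCm38.p6, had 17 entries for the 10 genes, at least 1 for each, and the Tet3 start beside the day 5 5hmC peak is not among them. None overlapped a peak of any list and the smallest distance to one was 13.1 kb. Of all 32851 promoters there, 0.654% overlapped a peak of any list. At 9 of the 10 genes at least 1 promoter held more CpG than the median of the table, which was 2.33 per 100 bp. The exception was Dnmt3l, with 1.00 to 2.00 CpG per 100 bp in its promoters. The median is over single promoters, while each gene was judged by its CpG-richest one. The share of all genes that pass in this way was not computed, so the count describes these 10 genes only.

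The 8 peaks differed in their sequence. All but the Dnmt1 peak held more CpG per 100 bp than their own flanks. How often this holds over the whole lists was not computed, so it cannot be called particular to these peaks. Both Tet1 5hmC peaks lay near the median of their list, whereas the Tet3 5hmC peak and the 5mC peaks of Dnmt1 and Dnmt3l lay above the upper quartile of theirs. The sequence CCGG, which holds a CpG and is cut by methylation-sensitive enzymes, was present once in each Tet1 5hmC peak, 3 times in the Tet3 5hmC peak and once in the Tet3 5mC peak. Of the peaks of the same list within 20% of their width, 35.1%, 22.7%, 69.6% and 70.4% held it. It was absent from the other 4, where the shares were 70.5% and 72.8% for the Tet1 5mC peaks in the body and upstream, 27.1% for the Dnmt1 peak and 47.8% for the Dnmt3l peak. The AP-1 string TGACTCA, searched on both strands, was found once in the Tet3 5hmC peak and once in the Dnmt3l peak. Of peaks of like width, 45.6% and 6.37% held it. The RUNX string AACCACA was found only in the Dnmt1 peak, with 2 matches, and in 15.6% of peaks of like width. A match describes the letters and not a bound factor.

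**Figure D4:**
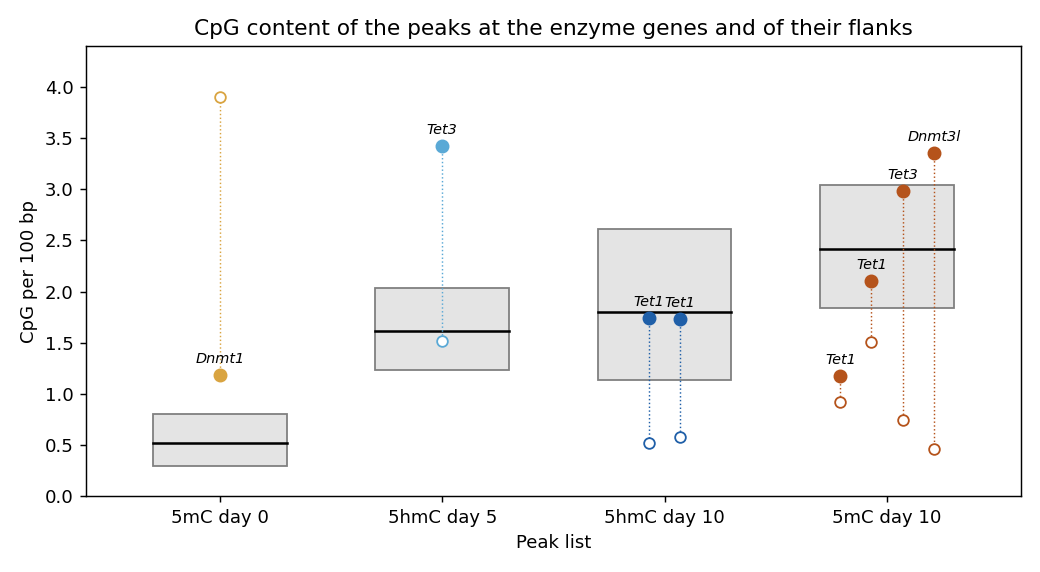
CpG per 100 bp (vertical axis) of the 8 peaks (filled points, named by gene) and of flanks of equal width that begin 2000 bp away (open points), by list. Grey boxes span the quartiles of all peaks of the list and the black line is the median. The Dnmt1 point alone lies below its flanks, and the 5mC peak in the body of Tet1 is the only one below its list's lower quartile.

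Genes whose products work beside these enzymes were counted in the same way. Of 34 such genes, 10 had a peak in the gene or within 50 kb in at least 1 list, where 37.1% of protein-coding genes did. In the body or 5 kb upstream 3 of them had one, where 15.3% of protein-coding genes did. By list, 0 of the 34 had a day 0 5mC peak in the window, 5 a day 5 5hmC peak, 6 a day 10 5hmC peak and 6 a day 10 5mC peak. The shares of all protein-coding genes were 1.84%, 14.0%, 20.6% and 15.9%. Of 8 genes for readers of methylated DNA, 2 had a peak in the body or upstream. Mbd2, a methyl-CpG binding protein gene, had a day 5 5hmC peak 2725 bp upstream, with 3.52 CpG per 100 bp, and 2 day 10 5mC peaks in its body. Zbtb38, a zinc finger protein gene, had a day 5 5hmC peak and 3 day 10 5mC peaks in its body, the widest of 1600 bp. Both thus had 5hmC at day 5 and 5mC at day 10, and no day 10 5hmC peak in the body or 5 kb upstream, a combination found at 72 protein-coding genes (0.328%). Within 50 kb, however, 3 of the 8 reader genes had a day 10 5hmC peak, Mbd2 and Zbtb38 among them.

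Of 9 genes for partners and regulators of TET and DNMT proteins, Cxxc5, a CXXC zinc finger protein gene, had a day 10 5hmC peak of 194 bp in its body. None of 11 base excision repair genes and none of 6 genes of methyl donor and oxoglutarate metabolism had a peak in the body or upstream. Of all protein-coding genes, 15.3% had one there in at least 1 list, so counts this small are hard to tell from that share. In the wider window 3 of the 11 repair genes and 2 of the 6 metabolic genes had one, where 37.1% of protein-coding genes did.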

How the data were processed

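The deposited files were 4 peak lists with chromosome, start, end and, for some peaks, a gene symbol. They hold no value per peak, and positions are printed as the files give them. Per the submitters' processing notes and the study's methods, the authors trimmed reads with cutadapt, aligned them with BWA and called peaks with MACS 1.4.2. The study's methods name HOMER for annotating peaks. The control of each call is not given in the sources used here.

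Gene spans and transcripts came from GENCODE mouse release 21 on GRCm38, and the sequence from the RefSeq copy of that build, with Python 3.11.15, numpy 2.4.6, scipy 1.17.1 and pysam 0.24.0. A peak counted with an overlap of at least 1 bp, and distances ran between nearest edges. Repeats were lower-case bases of the reference. The overlap code was checked on simulated peaks. With 1 list for each mark and day no test was made, and lists are described by counts beside those over all protein-coding genes. All 10 genes were named in each list, with their nearest peak, and related genes only where a peak lay in the body or 5 kb upstream. The genes, lists and settings were chosen with earlier results of these data known. The input sample was not analysed here.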

Additional observations from a re-analysis of the deposited data

How the results depend on the processing

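With 10 genes and 1 to 4 peaks a list, most counts rested on single peaks. Of 143 alternative values, 114 were counts within 1.5 times the one given above, or values inside its wide counting interval. Some of these moved about as much as the rest: with 10 kb windows the peaks per Mb were 1.32 (5hmC, day 5), 2.64 (5hmC, day 10) and 1.32 (5mC, day 10), and bases outside repeats gave 0.971 CpG per 100 bp for the second Tet1 5hmC peak. Others of the 114 could not differ from the value given. Leaving out a Tet1 day 10 5hmC peak cannot change the other lists, and a stricter overlap or narrower region cannot lower a count of 0. The 114 is thus no measure of how stable the results are. No paired analysis was possible because each 5hmC list pools the numbered samples of its day, which is also why no replicate could be left out. With windows of 10 kb the day 0 5mC count fell to 0 genes, 0 peaks and 0 peaks per Mb, and the day 10 5mC count to 1 gene and 1 peak, while 25 kb windows left 2 day 10 5mC peaks. With 100 kb windows the day 5 5hmC count rose to 2 genes and 2 peaks and the day 10 5hmC count to 2 genes. By the authors' symbol alone, day 0 5mC and day 5 5hmC had 0 genes and 0 peaks, and day 10 5mC had 1 gene and 1 peak. Leaving out peaks that are over 50% repeat took the day 0 5mC count to 0 genes and 0 peaks. Within 1 kb, in place of overlap, 1 day 10 5hmC peak and 1 day 10 5mC peak met a peak of another list. Without the Tet1 peak between the genotyping primers, a setting chosen after seeing the data, there was 1 day 10 5hmC peak, or 0.642 per Mb. In 200 bp around the midpoint the CpG content per 100 bp moved to 0 and 0.500 for the Tet1 5mC peaks, 1.50 (5hmC) and 5.50 (5mC) for those of Tet3 and 0.500 for Dnmt1, because CpG are spread unevenly within them. With all 55450 annotated genes in place of protein-coding genes, the share with a peak in the window was 1.53%, 10.6%, 16.6% and 12.0% in the order of the lists by day. The Dnmt3l peak had too few bases outside repeats for that alternative. The unknown depth limits what a gene without a peak can show.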
